A study of Homo sapiens with 4 samples.

Results

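The genes described here are 53 genes of DNA replication licensing and S-phase entry, out of 57879 genes listed for T24 cells, a human bladder carcinoma line. They were chosen by name as known members of that machinery, but with earlier results of these data known. The control libraries (2) and the libraries of T24 cells expressing TET1-CD, the catalytic domain of the methylcytosine dioxygenase TET1 (2), were compared by RNA-seq. By the study's methods the domain was carried by a FLAG-tagged pCDH plasmid, virus-infected cells were selected with puromycin, and cells were kept in RPMI with 10% serum. The paper describes the T24 controls as empty-vector cells, while the labels call them control only. Whether either group is a pool or a clone is not given in the sources used here. The same source name, T24_induced, stands on both groups and is not explained. All 53 names matched 1 gene each, and 52 passed the filter on low counts; CCND2 did not.

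Replication begins with licensing. In G1, the origin recognition complex (ORC1 to ORC6), CDC6 and CDT1 load the MCM2 to MCM7 helicase on origins, and geminin (GMNN) binds CDT1 to stop loading once S phase has begun. Cyclin D and cyclin E kinases then release E2F factors, which drive many genes of this machinery, and CDC7 with DBF4, CDC45, GINS and MCM10 turn the loaded helicase into a moving fork. Changes in this group are widely read as changes in the share of cells in S phase, but in bulk RNA more cells in S phase and more RNA per cell cannot be told apart.

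The promoters of the members were examined because the genes are known to share E2F control. RefSeq promoter sequences (GRCh38.p14, from 250 bases before to 50 bases after a start) were matched by symbol for 44 of the 53 genes. The words TTTCCCGC, TTTCCCGG, TTTCGCGC, TTTCGCGG, TTTGCCGC, TTTGCCGG, TTTGGCGC and TTTGGCGG, which are forms of the E2F site, were searched on both strands. At least 1 was found for 26 of the 44 genes (59.1%), against 2030 of 27305 genes (7.43%) in the whole table. The word CCAAT, the site of NF-Y, was found for 27 members (61.4%), against 39.7% of all genes, and TTTGAA, the core of the mitotic CHR element, for 3 members (6.82%), against 18.2%. E2F words were found for 8 of the 12 members that rose in TET1-CD cells and for 18 of the 32 matched members that did not pass the test. Each of these E2F words holds the pair CG and TTTGAA does not. Where a gene had several promoters, a word in any of them counted, and the highest number of CG pairs was taken. The median of that number was 32 for the members and 16 for all genes. The part of CG pairs and of the number of promoters in the shares was not tested. A word in a window is a description and not a binding site. The upstream windows of the 4 members with the largest rises are given here, because they show how far these genes share E2F words, which are in capitals. They lie outside any exon of GENCODE release 44, but those of CDT1 and CCND3 fall inside the gene spans of the files, which include earlier starts. On GRCh37 they lie at chr16:88870047-88870196 on the plus strand for CDT1, and on the minus strand at chr12:57146159-57146232 for PRIM1, chr6:41909547-41909696 for CCND3 and chr3:48229908-48230057 for CDC25A.
CDT1: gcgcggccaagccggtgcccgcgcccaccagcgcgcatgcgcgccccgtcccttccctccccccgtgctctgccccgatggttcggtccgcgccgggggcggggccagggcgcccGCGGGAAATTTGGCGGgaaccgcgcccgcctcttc
PRIM1: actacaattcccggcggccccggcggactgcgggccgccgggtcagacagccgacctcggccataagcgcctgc
CCND3: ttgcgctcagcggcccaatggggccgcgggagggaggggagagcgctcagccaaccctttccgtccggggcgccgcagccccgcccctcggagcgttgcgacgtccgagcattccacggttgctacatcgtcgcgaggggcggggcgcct
CDC25A: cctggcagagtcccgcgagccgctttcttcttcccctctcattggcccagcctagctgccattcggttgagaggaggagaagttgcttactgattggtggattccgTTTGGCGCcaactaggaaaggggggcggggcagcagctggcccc
The CDT1 window holds 2 E2F words side by side on opposite strands, which begin 35 and 27 bases before the start. CDC25A holds 1 in the window, 44 bases before the start, while those of PRIM1 and CCND3 hold none. The PRIM1 window is shorter, 74 bases from -125 to -52, and leaves out the stretch where the words of CDT1 and CDC25A lie, but no E2F word was found in the full promoters of PRIM1 or CCND3 in the table either. Of the CCND3 starts in the table, the one shown is that of its main transcript, ENST00000372991.

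Library totals were 17442143 to 20295266 estimated fragments, mitochondrial genes took 2.49% to 3.39% of them and TMM factors, which scale library sizes, were 0.993 to 1.005. TET1 had 102 and 89.6 normalized counts in control cells and 3128 and 3153 in TET1-CD cells (log2 fold change 5.02). Of the urothelial markers, UPK1A, UPK1B, UPK2, UPK3A and KRT20 had 0 to 6 counts in every library, PPARG had 363 to 461, and GATA3 had 19 and 19 in control and 46 and 44 in TET1-CD cells. The keratins KRT7, KRT8 and KRT18 were abundant, while KRT5 was at 0 and CDH1 at 0 to 2 counts. KRT7 was at 544 and 550 FPKM (fragments scaled to transcript length and library size) in control and 697 and 687 in TET1-CD cells, and the mesenchymal VIM at 1692 and 1837 against 1344 and 1374. KRT18 was also higher (419 and 396 FPKM in control, 467 and 463 in TET1-CD cells), and the mesenchymal FN1 was lower (595 and 607 against 476 and 510). For KRT8 (495 and 464 against 467 and 445) and the mesenchymal CDH2 (46.3 and 41.8 against 44.1 and 45.95) the groups overlapped. The part of these markers in the results was not tested. Summed over 6 fibroblast markers there were 75 to 89 counts in control and 276 to 322 in TET1-CD libraries, nearly all COL1A1, and the part of this in the results was not tested. DCN, LUM and PDGFRA had at most 4 counts each in any library. Of the leukocyte markers, PTPRC and CD3E had at most 2, while CD68 and CD14, which other cells also express, had 411 to 577 and 8 to 15.

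Among the genes of DNA replication more rose than fell in TET1-CD cells, and none of those tested reached a fold change of 2. Of the 52 members tested, 12 rose, 1 fell and 39 did not pass the test, which was edgeR's quasi-likelihood test with an adjusted p under 0.05 over all 14573 genes tested. Among all genes, 19.7% were called, 10.0% higher and 9.61% lower, so that 23.1% of members rose where 10.0% of genes did and 1.92% fell where 9.61% did. The members that rose were CDT1, PRIM1, CCND3, CDC25A, ORC6, CDC45, MCM10, PRIM2, POLA1, E2F1, RFC3 and MCM7, and CCND1 fell. The fitted value was above 0 for 42 members and below 0 for 10, with a median log2 fold change of 0.13 (lowest -0.22, highest 0.63), while the median over all genes was 0.00095. Both TET1-CD libraries were above both control libraries for 30 members (57.7%, against 30.8% of all genes) and below them for 4 (7.69%, against 30.2%). Where a 2-fold threshold was added to that of the adjusted p, 3.77% of all genes were called by edgeR (2.72% higher and 1.04% lower) and 0 members. The study's methods name the same fold threshold with a p whose adjustment is not stated, and no tested member reached that fold. In all, 20 members (38.5%) against 33.2% of all genes had an unadjusted p under 0.05.

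**Figure D1:**
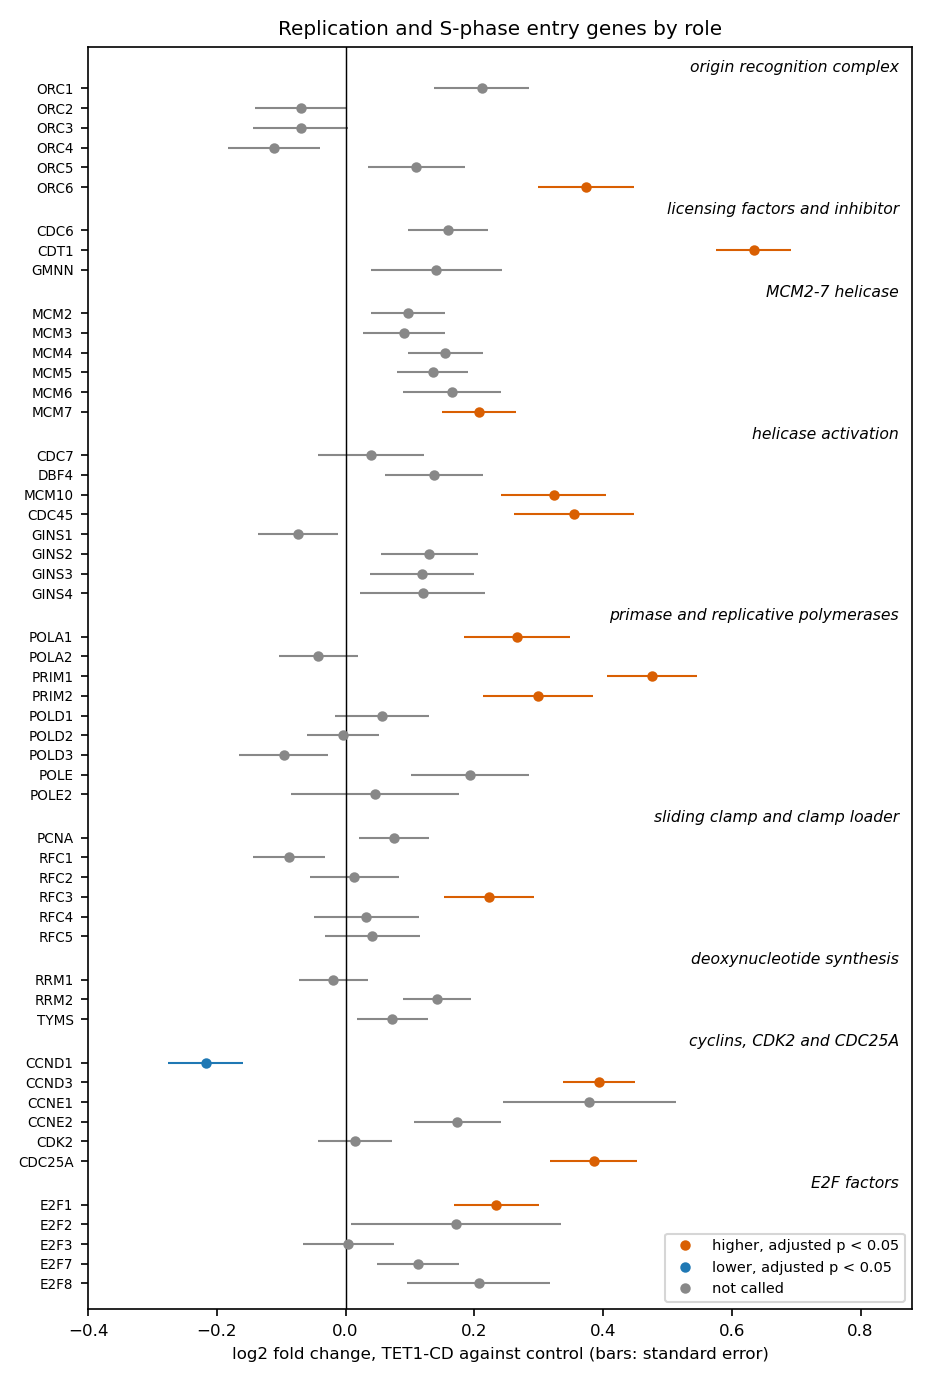
log2 fold changes of the 52 tested genes by role (x axis, points; bars show the standard error), with genes that passed an adjusted p of 0.05 in colour. CDT1 lies farthest to the right at 0.63, and CCND1 at -0.22 is the single gene that fell.

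The libraries of the control group were not alike for these genes. The median deviation of the members from their mean over all 4 libraries was -0.0092 on the log2 scale in control replicate 1, -0.12 in control replicate 2, 0.07 in TET1-CD replicate 1 and 0.046 in TET1-CD replicate 2. Control replicate 1 thus lay between control replicate 2 and the TET1-CD libraries. It was above control replicate 2 for 45 of the 52 members (86.5%), where 49.0% of all genes were, and the median log2 difference between these controls was 0.095 for the members. Control replicate 2 also had the highest mitochondrial share, 3.39%, against 2.91% in control replicate 1, and the part of this in the difference was not tested. Without control replicate 2, the median log2 fold change of the members was 0.056 and 11 members were called, with 19.2% of members and 12.4% of all genes higher. Without control replicate 1 it was 0.17 and 24 were called, with 44.2% of members and 12.4% of all genes higher. Without TET1-CD replicate 1 or 2, 3 and 5 members were called, with 2.85% and 3.47% of all genes called higher. CDT1, PRIM1 and CCND3 were called in each of these 4 fits. POLA1, PRIM2 and RFC3 were called only in the one without control replicate 1. CDC45, MCM10, E2F1, MCM7 and CCND1 were called without either control library but not without either TET1-CD library, and ORC6 and CDC25A lost the call only without TET1-CD replicate 1, with log2 fold changes of 0.28 and 0.41. With DESeq2 in place of edgeR, E2F1, POLA1, PRIM2 and RFC3 lost the call (adjusted p of 0.0976, 0.0787, 0.117 and 0.141), and RFC3 also did with limma-voom (0.0515). A fit with a lone library in a group takes that library to vary like the other group.

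**Figure D2:**
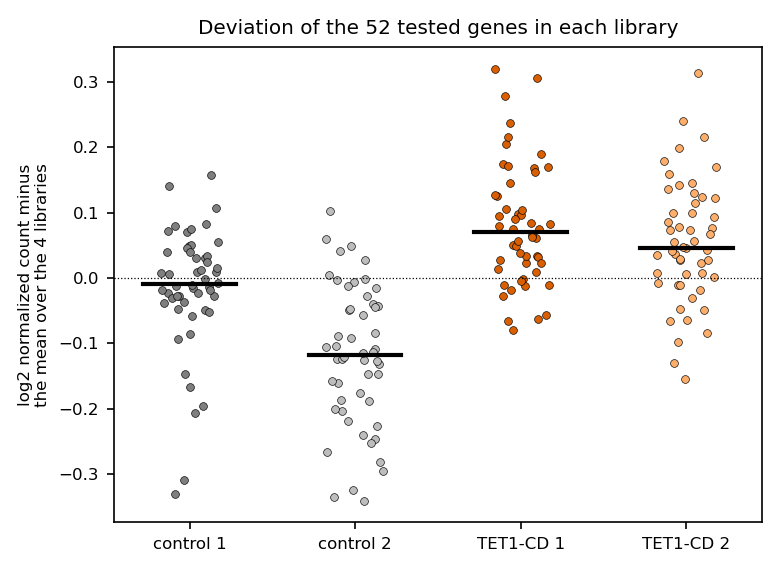
Deviation of each of the 52 tested genes from its own mean over the 4 libraries (y axis, log2 of normalized counts; points are genes, jittered in x; black bars are medians). The median of control replicate 2 is the lowest at -0.12, and that of control replicate 1 is -0.0092.

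CDT1, the loader that licenses origins and is destroyed in S phase, lies on chromosome 16 from 88869621 to 88875666 and had 915 and 905 normalized counts in control cells and 1416 and 1409.6 in TET1-CD cells. CDT1 stood at 20.87 and 21.29 FPKM in control and 31.25 and 27.44 in TET1-CD cells, a log2 ratio of means of 0.48. In normalized counts the libraries of each group were nearly identical and the groups did not overlap. This is a rise of 55.2% (log2 fold change 0.63, standard error 0.06, adjusted p = 8.39e-05 from edgeR), and CDT1 remained called with each library left out in turn (0.62 to 0.64). GMNN, the inhibitor of CDT1, had 537 and 499 normalized counts in control and 626 and 519 in TET1-CD cells, and the groups overlapped (log2 fold change 0.14, standard error 0.10, adjusted p = 0.374 from edgeR). The ratio of CDT1 to GMNN counts, which no scaling between libraries can change, was 1.7 and 1.82 in control and 2.26 and 2.72 in TET1-CD cells. CDC6, which works with ORC to load the helicase, had 2279 and 2078 normalized counts in control and 2475 and 2394 in TET1-CD cells (log2 fold change 0.16, adjusted p = 0.1004 from edgeR), above control in both libraries but not called.

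Of the origin recognition complex, 1 of 6 subunits rose. ORC6, the smallest subunit, lies on chromosome 16 from 46723555 to 46732306. It had 1028 and 972 normalized counts in control and 1380.3 and 1214 in TET1-CD cells, a rise of 29.5% (log2 fold change 0.37, standard error 0.07, adjusted p = 0.00713 from edgeR). Its TET1-CD libraries were farther apart than its control libraries, but both were above. ORC1, the subunit whose level varies through the cell cycle, had 645 and 628 normalized counts in control and 722 and 752 in TET1-CD cells (log2 fold change 0.21, adjusted p = 0.0706 from edgeR). ORC5 had a log2 fold change of 0.11, and ORC2, ORC3 and ORC4 had -0.07, -0.07 and -0.11. None of these 5 passed the test.

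The MCM2 to MCM7 helicase, the motor of the fork, had 6 fitted values above 0, from 0.091 for MCM3 to 0.21 for MCM7. MCM7 was the member that rose, with 4442 and 4109 normalized counts in control and 4868 and 5006 in TET1-CD cells (log2 fold change 0.21, standard error 0.06, adjusted p = 0.0305 from edgeR). MCM4, the most abundant subunit per length, had 107 and 102 FPKM in control and 128 and 118 in TET1-CD cells, and its adjusted p was 0.093 by edgeR. For MCM3 the groups overlapped, and for the other 5 subunits they did not. Summed over the subunits, normalized counts were 23522 and 21450 in control and 24825 and 25052 in TET1-CD cells, so the gap between the controls was larger than that between control replicate 1 and either TET1-CD library.

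MCM7, on chromosome 7 from 99690351 to 99699563, also differed in its transcripts. ENST00000303887, the main protein-coding form, took 73.8% and 71.4% of the gene's counts in control and 82.4% and 85.6% in TET1-CD cells. ENST00000489841, which GENCODE release 44 classes as a retained intron, took 25.1% and 27.5% in control and 16.95% and 13.5% in TET1-CD cells. Its estimated counts were 1208 and 1047 in control and 775 and 711 in TET1-CD cells, so this form was lower while the gene as a whole was higher. Among 52 members with enough counts, MCM7 was the 1 gene (1.92%) with a transcript share that differed by at least 10 percentage points without overlap, against 8.74% of all genes. Shares of transcripts are estimates that rest on few reads unique to a form, and the shares themselves were not tested. In the edgeR fit on 43213 single transcripts 1 was called, which was higher (0.00231%), and 0 of the 52 main transcripts of members were called (14 had an unadjusted p under 0.05). AP4M1 lies on the opposite strand over the end of MCM7 where ENST00000489841 starts, and had 7.39% as many counts as MCM7 with a log2 fold change of 0.11 (adjusted p = 0.478 from edgeR). Whether reads were counted by strand is not given in the sources used here.

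Of the 8 genes that activate the helicase, 2 rose. CDC45, which joins MCM and GINS in the moving helicase, had 849 and 687 normalized counts in control and 975 and 995 in TET1-CD cells (log2 fold change 0.36, standard error 0.09, adjusted p = 0.0246 from edgeR). MCM10, which helps to set the helicase going, had 1147 and 959 in control and 1342 and 1299 in TET1-CD cells (log2 fold change 0.32, standard error 0.08, adjusted p = 0.0215 from edgeR). In both genes control replicate 2 was well below control replicate 1, and without it the log2 fold changes were 0.21 and 0.20, against 0.51 and 0.45 without control replicate 1. The kinase CDC7 and its activator DBF4 had log2 fold changes of 0.04 and 0.14, and GINS1 to GINS4 had -0.07, 0.13, 0.12 and 0.12, and none of these 6 passed the test.

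Both subunits of primase rose. PRIM1, the catalytic subunit that makes RNA primers, lies on chromosome 12 from 57125380 to 57146157. It had 699 and 659 normalized counts in control and 945 and 947 in TET1-CD cells, a rise of 39.1% (log2 fold change 0.48, standard error 0.07, adjusted p = 0.00142 from edgeR), and remained called with each library left out in turn (0.43 to 0.51). Its last bases overlap the first bases of NACA, a far more abundant gene on the same strand, which had a log2 fold change of -0.08. PRIM2, the regulatory subunit, had 589 and 517 in control and 678 and 685 in TET1-CD cells (log2 fold change 0.30, standard error 0.09, adjusted p = 0.035 from edgeR), and POLA1, the catalytic subunit of the polymerase that primase works with, had 1317 and 1101 in control and 1495 and 1419 in TET1-CD cells (log2 fold change 0.27, adjusted p = 0.0479 from edgeR). Both were called in 1 of the 4 fits with a library left out, the one without control replicate 1. POLA2, the remaining subunit of that complex, had -0.04, and its groups overlapped. EEF1B2P3 lies within POLA1 on the opposite strand and had 12.28% as many counts as POLA1. Its log2 fold change was 0.22 (adjusted p = 0.308 from edgeR), and its part in the value of POLA1 was not tested.

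The polymerases that extend the strands did not pass the test. POLD1, POLD2 and POLD3 had log2 fold changes of 0.06, -0.0038 and -0.10, and POLE and POLE2 had 0.19 and 0.05. POLE had the widest control pair among them, 1918 and 1555 normalized counts, against 1893 and 2083.0 in TET1-CD cells, and the groups overlapped. PCNA, the sliding clamp and the most abundant member at 210.0 ± 10.4 FPKM in control and 223 ± 1.29 in TET1-CD cells (SD, n = 2), came to a log2 fold change of 0.07, with a standard error of 0.05 and an adjusted p of 0.378 from edgeR. Of the clamp loader RFC1 to RFC5, RFC3 rose, from 1223 and 1084 normalized counts to 1332 and 1364 (log2 fold change 0.22, standard error 0.07, adjusted p = 0.0487 from edgeR). RFC3 was close to the threshold and was called in 5 of 7 other settings. RFC1 had -0.09 and RFC2, RFC4 and RFC5 had 0.01, 0.03 and 0.04. Differences between subunits were not tested.

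In deoxynucleotide synthesis no gene passed the test. RRM2, the S-phase subunit of ribonucleotide reductase, had 8764 and 8370.5 normalized counts in control and 9615 and 9297 in TET1-CD cells (log2 fold change 0.14, standard error 0.05, adjusted p = 0.0911 from edgeR). RRM1, the large subunit, had -0.02 with overlapping groups. TYMS, which makes thymidylate, had 0.07.

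**Figure D3:**
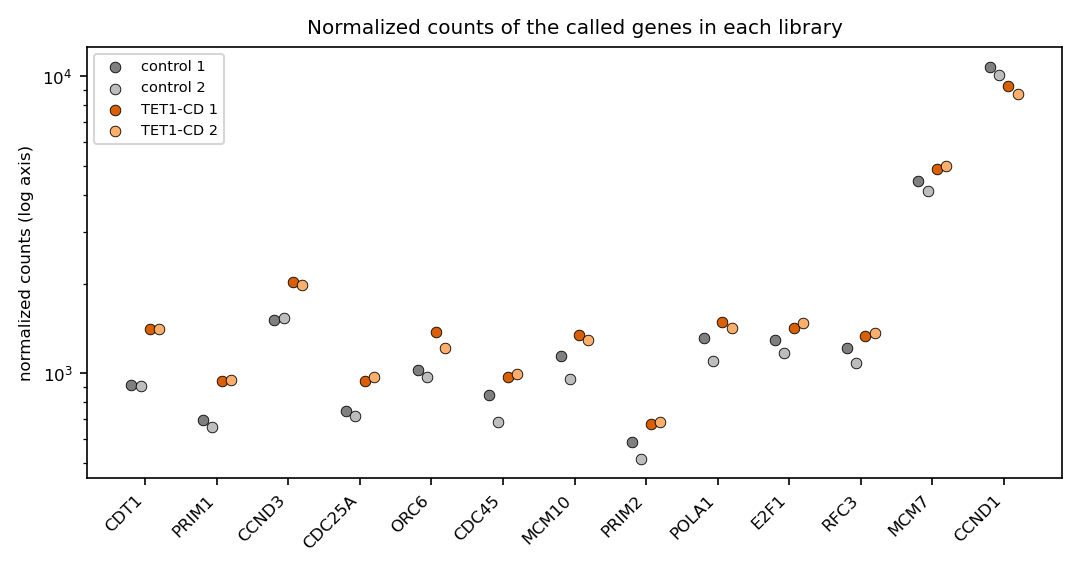
Normalized counts (log axis) of the 13 genes that passed the test in each of the 4 libraries. For CDT1 the control libraries lie at 915 and 905 and the TET1-CD libraries at 1416 and 1409.6, while for CDC45 the controls are spread over 849 and 687.

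The D-type cyclins, which start the release of E2F in G1, moved in opposite directions. CCND1, on chromosome 11 from 69455855 to 69469242, had 10793 and 10087 normalized counts in control and 9268 and 8695 in TET1-CD cells (log2 fold change -0.22, standard error 0.06, adjusted p = 0.0275 from edgeR). Both TET1-CD libraries were below both controls, a change of -14.0%. CCND3, on chromosome 6 from 41902671 to 42018095, had 1515 and 1537 in control and 2031 and 1980.2 in TET1-CD cells, a rise of 31.4% (log2 fold change 0.39, standard error 0.06, adjusted p = 0.00119 from edgeR), and remained called with each library left out (0.38 to 0.41). CCND2 was near absent, with 1 and 0 counts in control and 3 and 4 in TET1-CD cells, and was not tested. Per length, CCND1 made up 77.5% and 75.6% of the summed cyclin D FPKM in control and 69.5% and 68.8% in TET1-CD cells. The sum itself was 179 and 168 FPKM in control and 178 and 168 in TET1-CD cells, and the groups overlapped. In normalized counts the sum was 12309 and 11624 in control and 11302 and 10679 in TET1-CD cells. By that measure both TET1-CD libraries were below both controls. The ratio of CCND1 to CCND3 counts was 7.12 and 6.56 in control and 4.56 and 4.39 in TET1-CD cells.

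**Figure D4:**
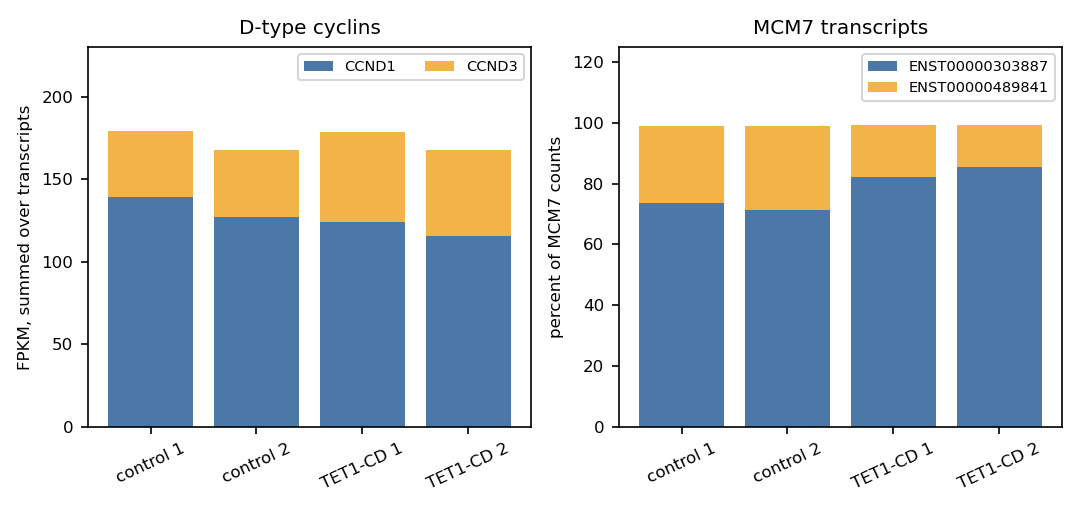
Left, FPKM of CCND1 and CCND3 stacked for each library; right, share of MCM7 counts (percent) of its leading transcripts in each library. CCND1 takes 77.5% and 75.6% of cyclin D FPKM in control and 69.5% and 68.8% in TET1-CD cells, and ENST00000489841 takes 25.1% and 27.5% against 16.95% and 13.5% of MCM7.

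Of the genes that act with CDK2 later in G1, CDC25A rose. This phosphatase, which activates CDK2, lies on chromosome 3 from 48198636 to 48229892. It had 746 and 719 normalized counts in control and 942 and 972 in TET1-CD cells, a rise of 30.6% (log2 fold change 0.39, standard error 0.07, adjusted p = 0.00368 from edgeR). CDK2 itself had 2518 and 2356 in control and 2496 and 2429.7 in TET1-CD cells (log2 fold change 0.01, adjusted p = 0.893 from edgeR), with overlapping groups. The ratio of CDC25A to CDK2 counts was 0.296 and 0.305 in control and 0.377 and 0.4 in TET1-CD cells. CCNE1, a cyclin that activates CDK2, had 180 and 219 normalized counts in control and 280 and 238 in TET1-CD cells (log2 fold change 0.38, standard error 0.13, adjusted p = 0.0766 from edgeR). Its log2 fold change was close to that of CDC25A, with a standard error of 0.13 against 0.07. CCNE2, its more abundant relative, had 1046 and 949.6 in control and 1139 and 1115 in TET1-CD cells (log2 fold change 0.17, adjusted p = 0.1004 from edgeR), and the ratio of CCNE1 to CCNE2 overlapped between groups.

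All 5 E2F genes had fitted values above 0, and 1 was called. E2F1, an activator that itself is an E2F target, had 1292 and 1173 normalized counts in control and 1423 and 1478 in TET1-CD cells (log2 fold change 0.23, standard error 0.07, adjusted p = 0.0337 from edgeR). Without control replicate 2 its log2 fold change was 0.17, and without control replicate 1 it was 0.30. The activators E2F2 and E2F3 had 0.17 and 0.0045, with overlapping groups. The repressors E2F7 and E2F8 had 0.11 and 0.21, with adjusted p of 0.255 and 0.228 from edgeR. In both repressors the TET1-CD libraries were above the controls, but for E2F7 only just. Its control replicate 1 had 2488.7 normalized counts and its TET1-CD replicate 1 had 2490.3. The ratio of E2F1 to E2F7 counts was 0.519 in both control libraries and 0.571 and 0.559 in TET1-CD cells.

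Ordered by mean FPKM over both groups, PCNA was followed by RRM2, CCND1, RRM1, MCM4 and TYMS, and E2F2 at 1.75 and CCND2 at 0.0175 were lowest. CDK2 and MCM5, neighbours at 63.6 and 63.5, did not differ beyond their spread in either group, and neither did RRM1 and TYMS, at 115 and 111.

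**Figure D5:**
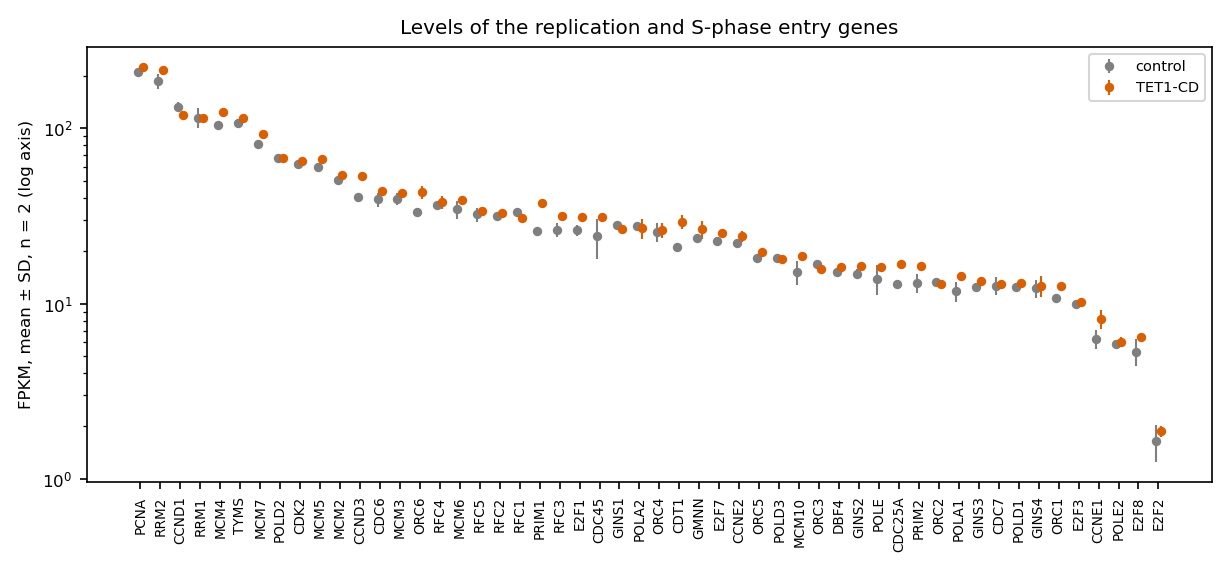
FPKM of 52 of the genes (all but CCND2) in control and TET1-CD cells (y axis, log scale; points are means and bars the SD of 2 libraries), ordered by the mean of both groups. PCNA is highest, at 210.0 and 223, and E2F2 lowest, at 1.64 and 1.87.

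Other lists of cell cycle genes were set beside the members. Of 56 other genes of the replication fork, 9 rose and 1 fell, with a median log2 fold change of 0.063. These were 16.1% and 1.79%, against 10.0% and 9.61% of all genes. FEN1, which trims Okazaki fragments, had 2792 and 3013 normalized counts in control and 3462 and 3569.8 in TET1-CD cells (log2 fold change 0.28, adjusted p = 0.00915 from edgeR). RPA2, of the single-strand binding complex, had a log2 fold change of 0.26 (adjusted p = 0.0256 from edgeR), and DCTPP1 and DSCC1, of nucleotide clean-up and clamp loading, had 0.21 and 0.26. TOP2A, which untangles replicated DNA, fell by 0.22 on the log2 scale (adjusted p = 0.0387 from edgeR).

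Of 40 G1/S regulators tested outside the members, 3 rose and 2 fell (7.5% and 5%), with a median of -0.052. Among all genes 10.0% rose and 9.61% fell, so both shares were below those of all genes. Of these regulators, the 2 that fell encode inhibitors of cyclin-dependent kinases. CDKN1B, the inhibitor of cyclin E with CDK2, had 1053 and 959 normalized counts in control and 812 and 751 in TET1-CD cells (log2 fold change -0.37, standard error 0.08, adjusted p = 0.00838 from edgeR). CDKN2B, an inhibitor of CDK4 and CDK6, had 226 and 274 in control and 151 and 173 in TET1-CD cells (log2 fold change -0.62, standard error 0.14, adjusted p = 0.0116 from edgeR). CCNA1, MYBL2 and E2F4 rose, by 0.52, 0.26 and 0.18 on the log2 scale.

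Of 52 G2/M genes, 4 rose and 1 fell (7.69% and 1.92%, against 10.0% and 9.61% of all genes), with a median of 0.038. PLK1, AURKB, BUB1B and KIF23, which act in mitosis, had log2 fold changes of 0.21, 0.21, 0.19 and 0.21, and NUSAP1, a spindle protein, had -0.34 (adjusted p = 0.00204 from edgeR). Control replicate 1 was above control replicate 2 for 47 of the 52 genes, with a median log2 difference of 0.14, beside 0.095 for the members. Among the lists, the share of genes that rose was highest for the members, and the differences between lists were not tested. All these values rest on 2 libraries in each group.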

How the data were processed

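Poly(A) or rRNA-depleted RNA of T24 cells was sequenced, 2 control and 2 TET1-CD libraries. For each transcript, the authors deposited an estimated count, which need not be whole, and an FPKM value, scaled to transcript length and library size. Per the labels the build was hg19 and the tools cutadapt 1.9.1, HISAT2 2.0.1, HTSeq 0.6.1 and DESeq2. The values are not whole, so they are not plain HTSeq counts, and their quantifier and strand setting are not given in the sources used here.

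Expected counts were summed per gene and rounded. TET1-CD and control cells were compared with edgeR 4.0.16 (glmQLFit, glmQLFTest, TMM, filterByExpr) in R 4.3.3, with Benjamini-Hochberg adjustment over 14573 genes, and the test was tried on simulated data. Normalized counts are TMM-scaled to the mean library. Standard errors are the log2 fold change over the square root of F. Control replicates differed by a chi-square of 6.41 per gene and TET1-CD replicates by 2.75, so neither pair was 1 library given again. If replicates are not separate cultures, p-values measure only the spread between these libraries.

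Promoters came from RefSeq (GRCh38.p14), and printed windows were placed on GRCh37 by exact match. The members, lists and words were chosen with earlier results of these data known. The genes named are TET1, the members called, the smallest p and highest mean FPKM in each role, CDT1, GMNN, CDC25A, PCNA, CCND1, CCNE1, CCNE2, E2F1, CCND2 as below the filter, and the 5 smallest p of each other list, of 56, 41 and 52 genes. Some genes of these lists are not reported here. TOP2A, EEF1B2P3, the values of the remaining members and the transcripts of MCM7 were named after their values were seen. Alternatives were DESeq2 1.42.0, limma 3.58.1 (voom), RLE, library size only, other filters, a replicate block, FPKM, dominant transcripts and the omission of each library.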

Additional observations from a re-analysis of the deposited data

How the results depend on the processing

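With each library left out in turn, DEGs (genes past both the 2-fold and the adjusted p threshold) ranged from 323 to 617 (549 with all libraries) and genes called at any fold change from 832 to 3779 (2865). Members called ranged from 3 to 24 (13), and their median log2 fold change from 0.056 to 0.17 (0.13). All 13 called members kept their direction in these 4 fits, and 3 of them (CDT1, PRIM1 and CCND3) were called in every one. With 10 counts in every library there were 332 DEGs. DESeq2 called 1739 genes in all and 9 members, 8 higher and 1 lower. The other settings (RLE, library size only, no filter, limma-voom) called 12 to 15 members. With a replicate block 14 members, 3235 genes and 568 DEGs were called, and the members' median was 0.13. All 13 called members were called with the block too. The numbers of the libraries do not mark a shared culture in the labels, and the deviations of same-numbered libraries had a correlation of 0.00713 across genes. The value of POLD2 turned from -0.0038 to 0.0083 with library size only, and was -0.0127 to 0.0062 with a library left out, in each case near 0. Fitted on single transcripts, edgeR called 1 of 43213 and 0 main transcripts of members (14 at an unadjusted p under 0.05), so that this fit says little about single transcripts. Leaving out a TET1-CD library gave the fewest calls across all genes, and the cause was not tested.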
